A study of Mus musculus with 6 samples.

Results

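The 40 mitosis and spindle genes described here were chosen by name for their established roles in cell division, with earlier results of these data known. They come from the 55536 mouse genes whose transcripts are listed for these libraries. They are 13 mitotic kinases, cyclins and their transcription factor Foxm1, 5 genes of the anaphase-promoting complex, the spindle checkpoint and cohesin cleavage, 8 kinetochore and centromere genes, 9 spindle motors and microtubule-binding proteins, 3 cytokinesis genes and 2 chromosome proteins. The RNA came from RAW264.7, a mouse macrophage-like line that grows continuously after transformation by Abelson leukaemia virus. Cells of both groups were thus cells of a tumour line, and how far they were dividing was not measured here. The labels assign the line the background strain C57BL/6, which was not checked against its origin. PBS was given to the cells of the control group (Ctrl, 3 libraries), and Ti particles to those of the treated group (Ti, 3 libraries). No genotype, dose or time is given in the labels for either group, and nothing there says that the libraries came from separate cultures, so the p-values measure the spread between these libraries, which may be technical.

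Cells enter mitosis when cyclin B with CDK1 becomes active. Kinetochores then attach chromosomes to the spindle, and the checkpoint holds the anaphase-promoting complex (APC/C) in check until every chromosome is attached. Most genes for these steps are transcribed late in the cell cycle, held down by the DREAM complex at other stages and driven by MuvB with B-MYB and FOXM1, which act through a promoter element known as the cell cycle genes homology region (CHR), and by NF-Y, which binds CCAAT boxes. In macrophages these transcripts are widely used as a readout of proliferation.

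Expression was read from counts per transcript that the authors estimated and deposited, rescaled here to exon length and summed per gene, which gave 37686020 to 60242937 counts per library. Levels are in CPM, the count relative to the TMM-scaled library total, except where a level per length (on the TPM scale) is named. All 10 macrophage markers checked, among them Adgre1, Csf1r and Cd68, were above 3 counts in every library, while none of the 22 fibroblast, epithelial, lymphocyte and endothelial markers was. Summed over its list, no such marker group went over a level per length of 0.309 in any library, and the macrophage list summed to between 4600 and 7960. Mitochondrial genes took 2.64% to 3.41% of the per-length level in Ctrl and 2.9% to 3.36% in Ti.

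Promoter sequence is shown for the 3 members with the smallest p-values between the groups and the 2 with the highest levels that had an entry on a chromosome used here, to set the shared control element beside the expression values. RefSeq promoters (GRCm38.p6) were matched for 33 of the 40 members, all but Ccna2, Cdc25c, Aurkb, Foxm1, Incenp, Kif20a and Tpx2. Each line runs from 150 bases before the annotated start to 50 bases from it, and capitals mark the CHR letters TTTGAA and the CCAAT box CCAAT, on either strand, so TTCAAA and ATTGG are the same motifs read from the other strand. The windows are chr2:118598061-118598260 (plus strand) for Bub1b, chr15:99651607-99651806 (minus strand) for Racgap1, chr6:66535071-66535270 (plus strand) for Mad2l1, chr2:164769779-164769978 (plus strand) for Ube2c and chr11:99024140-99024339 (minus strand) for Top2a.
Bub1b: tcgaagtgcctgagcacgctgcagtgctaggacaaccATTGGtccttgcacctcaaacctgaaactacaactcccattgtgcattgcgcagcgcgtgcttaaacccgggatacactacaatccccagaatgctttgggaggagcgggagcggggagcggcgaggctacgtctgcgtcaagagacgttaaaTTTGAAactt
Racgap1: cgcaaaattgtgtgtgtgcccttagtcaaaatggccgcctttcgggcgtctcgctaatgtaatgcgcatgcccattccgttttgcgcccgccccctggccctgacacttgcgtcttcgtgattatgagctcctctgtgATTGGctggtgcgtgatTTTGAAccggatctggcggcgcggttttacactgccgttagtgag
Mad2l1: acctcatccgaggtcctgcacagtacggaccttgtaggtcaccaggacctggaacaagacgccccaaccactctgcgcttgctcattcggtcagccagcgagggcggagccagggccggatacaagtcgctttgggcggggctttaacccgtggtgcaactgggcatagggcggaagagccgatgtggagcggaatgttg
Ube2c: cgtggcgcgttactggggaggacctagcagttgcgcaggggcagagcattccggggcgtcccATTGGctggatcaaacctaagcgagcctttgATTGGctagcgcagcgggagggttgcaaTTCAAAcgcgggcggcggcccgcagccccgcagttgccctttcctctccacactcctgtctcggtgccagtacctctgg
Top2a: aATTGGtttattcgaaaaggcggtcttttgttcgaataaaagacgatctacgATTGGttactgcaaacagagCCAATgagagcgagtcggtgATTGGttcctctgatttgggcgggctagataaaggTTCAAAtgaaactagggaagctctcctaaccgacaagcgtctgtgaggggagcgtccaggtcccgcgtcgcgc
Counting the annotated start as base 1, the CHR letters began at base 41 in Bub1b and at base 6 in Racgap1, and they lay 29 bases before the start in Ube2c and 23 before it in Top2a. The Mad2l1 window held neither motif. It ends at 66535270, before the gene start at 66535390 in GENCODE.

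Across the 300-base windows (250 before to 50 after the start), TTTGAA was found in 25 of the 33 members (75.8%) and in 20.2% of all 27025 genes with a window. Within 100 bases before the start or after it, the letters were found in 24 members (72.7%) against 9.23% of all genes. CCAAT was found in 25 members (75.8%) against 41.1% of all genes. Both motifs were present in 22 members, and neither in 5, namely Birc5, Mad2l1, Nuf2, Nusap1 and Pttg1. Among other mitosis genes 53.7% held TTTGAA, and among DNA replication genes 15%. The variant TTTAAA was less common, in 9 members (27.3%) against 14.9% of all genes. Neighbouring matches may share a base, and a match describes the window only.

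**Figure D1:**
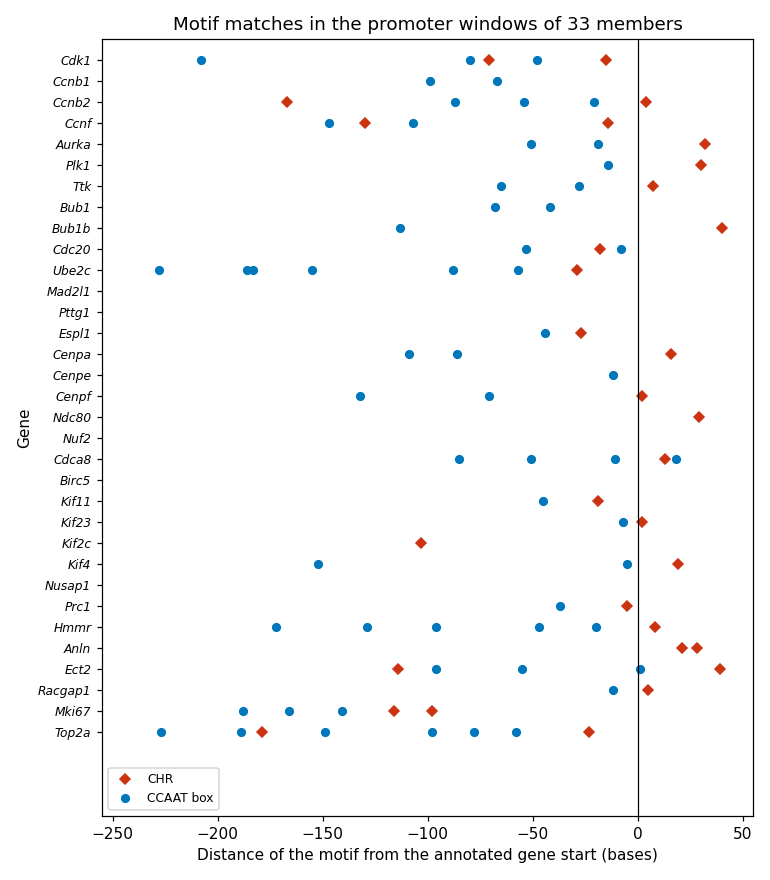
Position of each TTTGAA match (CHR, red diamonds) and each CCAAT match (blue circles), on either strand, in the promoter windows of the 33 members that had one, in bases from the annotated gene start (vertical line), with 1 row per gene. Most CHR matches sit within 100 bases before the start or after it, as they do in 24 members, and 5 rows hold no match.

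No member passed the test between Ti and Ctrl. All 40 members passed the filter on low counts, and edgeR's quasi-likelihood test called 0 of them at an adjusted p of 0.05, with 0.026% of the 15376 genes tested called in all. The lowest adjusted p among members was 0.744, for Foxm1. At an unadjusted p under 0.05, edgeR picked out 0 members, against 6.76% of all genes. DESeq2 also called 0 members (1.91% of all genes), and it put 1 member, Foxm1, at an unadjusted p under 0.05 (8.58% of all genes). When libraries were blocked by their number, edgeR put 5 members at an unadjusted p under 0.05 (9.37% of all genes). That fit called 0 members and 0 of all 15376 genes.

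More members had lower than higher fitted values in Ti, a lean that was not tested. Members transcribed together are not separate observations, and by library the members' median levels overlapped between the groups. Fitted values were lower in Ti for 29 members and higher for 11, so 72.5% were lower against 49.1% of all genes tested. The median log2 fold change of the members was -0.11 (quartiles -0.23 and 0.01), that of all genes was 0.01, and that of the 9190 genes within the members' range of mean CPM (5.37 to 372) was -0.00256. Those higher were Cdk1, Bub1, Ccnf, Cdc25c, Ttk, Espl1, Ndc80, Kif23, Hmmr, Ect2 and Mki67. In 6 members, Foxm1, Bub1b, Aurkb, Cenpa, Birc5 and Racgap1, every Ti library was below every Ctrl library, while 6.71% of all genes separated that way. In 0 members was every Ti library above every Ctrl library, against 6.63% of all genes. Those counts are on the CPM scale. On the level per length, tried after the values were seen, 4 members lay wholly below Ctrl (Bub1b, Foxm1, Pttg1 and Top2a), so Aurkb, Cenpa, Birc5 and Racgap1 overlapped there, and 0 lay wholly above, each against 5.09% of all genes. RNA from a whole culture cannot tell fewer cells in mitosis from less of these RNAs per cell.

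**Figure D2:**
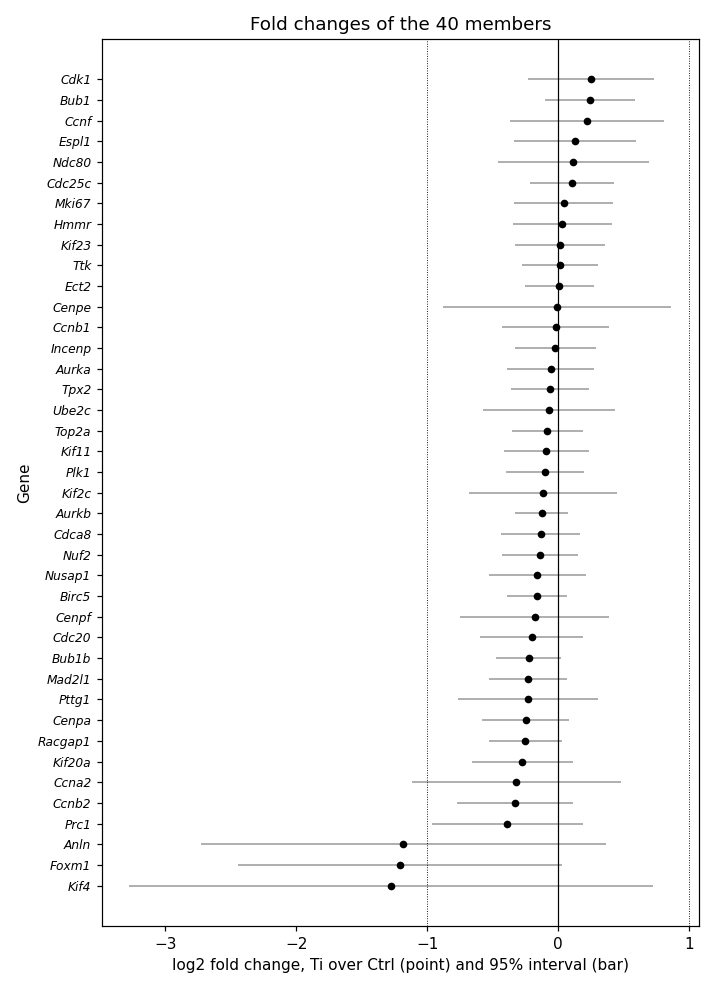
Fitted log2 fold change (Ti over Ctrl) of each of the 40 members, with points for estimates, bars for 95% intervals and dotted lines at -1 and 1. All bars cross 0, and all but those of Foxm1, Anln, Kif4 and Ccna2 lie between the dotted lines.

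Intervals within a doubling or halving were more common among the members than among all genes. They reflect the spread between these libraries, which may be technical. The 95% interval lay within 1 log2 unit of 0, which is a doubling or halving, for 36 members (90%), against 55.4% of all genes. Among the 9190 genes within the members' range of mean CPM (5.37 to 372), the share was 72.4%. The interval lay within 0.5 for 18 members (45%), against 20.8% of all genes and 31.9% of the genes in that range. Genes in the range were not matched to the spread of the members' levels within it. The 4 with wider intervals were Ccna2, Foxm1, Kif4 and Anln. Estimates were under 0.25 in size for 31 members and over 1 for 3.

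The downward lean was most marked in the library Ti 3. It held the lowest CPM of the 6 libraries for 22 of the 40 members, whereas it was lowest for 17.4% of all genes, and it was highest for 0 members against 19.1% of all genes. The members' median deviation from each gene's own mean (log2) was 0.05, 0.11 and 0.04 in Ctrl 1, 2 and 3, and 0.01, 0.08 and -0.20 in Ti 1, 2 and 3. Ti 2 held the highest value for 14 members, more than any Ctrl library did. Over all genes it was also highest more often, for 19.5%, against 15.1%, 13.4% and 18.6% for Ctrl 1, 2 and 3. With Ti 3 left out, 18 of 40 members were higher in Ti and the median was -0.04. The log2 fold changes of Racgap1, Mad2l1, Ccnb2, Cenpa, Cdc20 and Prc1 were then -0.15, -0.14, -0.16, -0.15, -0.05 and -0.20. With both libraries numbered 3 left out, a choice made after the values were seen, 17 were higher and the median was -0.04. Ti 3 had 48543436 rescaled counts, 2.9% of its level in mitochondrial genes and 12.6% of the members' level in retained-intron forms, and the part of these in its position was not tested. Ti 3 was also lowest for 28 of 77 other mitosis genes, with a median deviation of -0.14. Of 25 DNA replication genes, Ti 3 was lowest for 8 and Ctrl 3 for 11, with median deviations of -0.10 and -0.13.

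**Figure D3:**
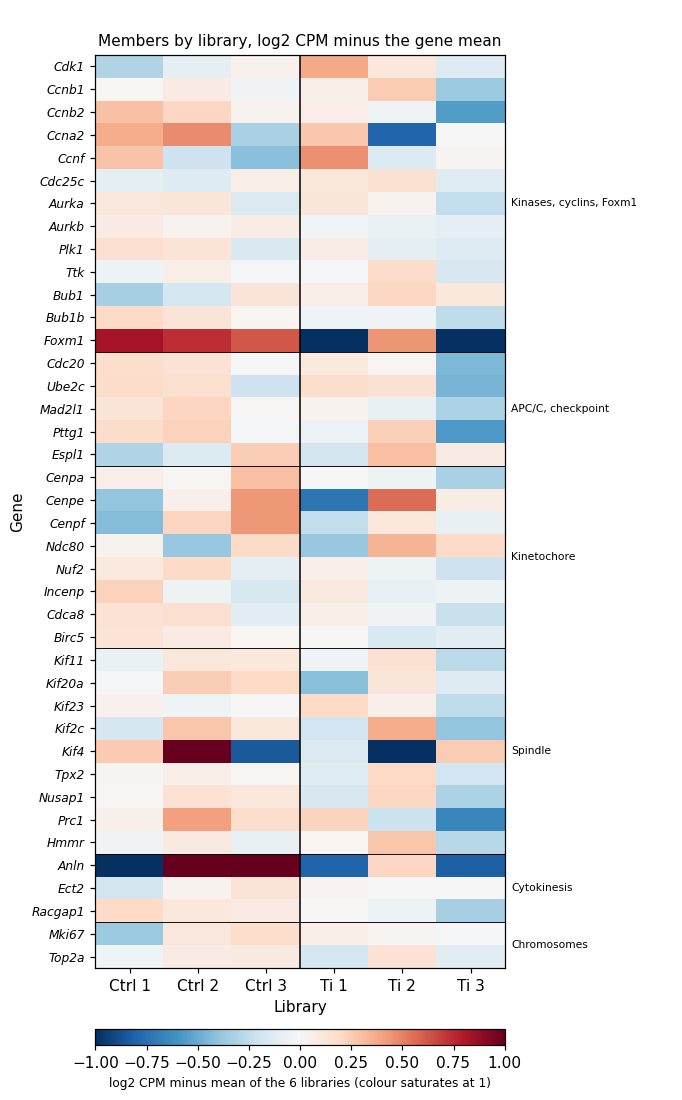
Log2 CPM of each member minus its mean over the 6 libraries, with genes in rows grouped by role, libraries in columns and a colour scale that saturates at 1. Ti 3 is blue in most rows, being the lowest library for 22 of 40 members, and Ti 2 is mostly red.

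Summed over the members, the level was 5159, 5702 and 5554 CPM in Ctrl 1, 2 and 3 and 4806, 5442 and 4354 CPM in Ti 1, 2 and 3. The groups overlapped, since Ti 2 was above Ctrl 1. The means were 5471 ± 281 CPM in Ctrl and 4867 ± 547 CPM in Ti (SD, n = 3), a ratio of 0.89. Without Foxm1, Anln and Kif4, the 3 members whose highest library was over 3 times their lowest, the ratio was 0.932.

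Among the 13 kinases, cyclins and Foxm1, 8 had lower and 5 higher fitted values in Ti, with a median log2 fold change of -0.06. Foxm1, the transcription factor that drives many of the other members, measured 247, 232 and 213 CPM in Ctrl 1, 2 and 3 and 59.1, 188 and 52.2 CPM in Ti 1, 2 and 3. The groups did not overlap, but Ti 1 and Ti 3 were low while Ti 2 lay close to the Ctrl libraries. Its means were 230 ± 16.9 and 99.8 ± 76.6 CPM (SD, n = 3). The log2 fold change was -1.21 (SE 0.51, interval -2.45 to 0.03), and edgeR's adjusted p was 0.744. Without Ti 2 it was -2.05 with an edgeR adjusted p of 0.044, the 1 call of a member when libraries were left out in turn, in a fit that called 0.0691% of all genes.

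Bub1b, which encodes the checkpoint protein BUBR1, measured 314, 299 and 277 CPM in Ctrl and 266, 266 and 229 CPM in Ti. All Ti libraries were below all Ctrl libraries, by a small margin in Ti 1 and Ti 2. Its log2 fold change was -0.23 (SE 0.10, interval -0.47 to 0.02), with an edgeR adjusted p of 0.763. Ccnb2, a B-type cyclin that activates CDK1, measured 151, 143 and 127 CPM in Ctrl and 130, 121 and 83.8 CPM in Ti. Ti 3 was the low library and the groups overlapped. Its log2 fold change was -0.33 (SE 0.18, edgeR adjusted p 0.823).

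Cdk1 itself, the kinase that starts mitosis, was listed at only 7.83, 8.98 and 9.90 CPM in Ctrl and 12.5, 10.4 and 8.80 CPM in Ti. Ti 1 and Ti 2 were above the Ctrl libraries and Ti 3 was among them, with a log2 fold change of 0.25 (SE 0.20, edgeR adjusted p 0.908). On the TPM scale Cdk1 was at 3.15, next to the bottom of the members, and Ccnb1, the other main B-type cyclin, at 99.0. Cdk1-201 carried 75.4% to 97.3% of the Cdk1 level, while the coding transcript Cdk1-202, with 9 exons, was listed at 0 in all 6 libraries. Whether reads of that transcript were assigned elsewhere was not tested. The checkpoint kinase gene Bub1 leaned the other way from Bub1b, at 67.7, 75.3 and 93.0 CPM in Ctrl and 89.1, 98.3 and 91.7 CPM in Ti, where only Ctrl 3 reached the Ti values. Its log2 fold change was 0.24 (SE 0.14, edgeR adjusted p 0.834).

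Estimates for the other kinases were small or uncertain. Aurkb, the kinase of the chromosomal passenger complex, measured 93.7, 91.0 and 93.3 CPM in Ctrl and 86.8, 84.6 and 83.0 CPM in Ti. The groups separated with a small gap, and its log2 fold change was -0.13 (SE 0.08, interval -0.33 to 0.07, edgeR adjusted p 0.864). Aurka, which acts at spindle poles, and Plk1, which acts from mitotic entry to cytokinesis, had log2 fold changes of -0.06 (SE 0.14) and -0.10 (SE 0.12). Ccnb1 was at -0.02 (SE 0.17), and its direction depended on the setting. Ccna2, cyclin A, was at -0.32 (SE 0.33), or -0.07 without Ti 2 and -0.52 on protein-coding forms alone, with Ctrl 3 at 74.4 CPM and Ti 2 at 53.8 CPM against 93.5 to 129 CPM in the other libraries.

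**Figure D4:**
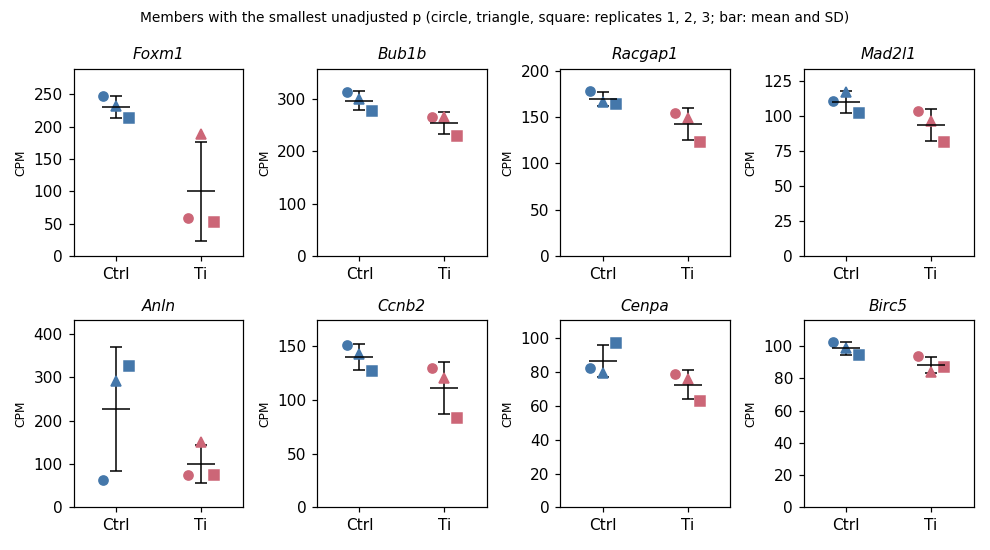
CPM in each library of the 8 members with the smallest unadjusted p, with Ctrl in blue and Ti in red, circles, triangles and squares for replicates 1, 2 and 3, and bars for the mean and SD of 3 libraries. The Foxm1 panel shows Ti 2 at 188 CPM, near Ctrl, and the Anln panel shows Ctrl 1 at 62.1 CPM, among the Ti libraries.

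Of the 5 genes of the APC/C, the checkpoint and cohesin cleavage, 4 had lower fitted values in Ti, with a median log2 fold change of -0.20. Ube2c, the ubiquitin-conjugating enzyme of the APC/C, had the highest level per length of all members, 231 on the TPM scale. It measured 199, 195 and 152 CPM in Ctrl and 198, 195 and 127 CPM in Ti. The libraries numbered 3 were lowest in both groups, and the log2 fold change was -0.07 (SE 0.21, edgeR adjusted p 0.987). Cdc20, the APC/C activator of anaphase, was at 117 on the TPM scale and measured 183, 179 and 162 CPM in Ctrl and 173, 164 and 118 CPM in Ti. Ti 1 and Ti 2 lay within the Ctrl range and Ti 3 below it, and the log2 fold change was -0.20 (SE 0.16, edgeR adjusted p 0.904). Mad2l1, the checkpoint protein that binds CDC20, measured 111, 117 and 102 CPM in Ctrl and 104, 96.2 and 81.5 CPM in Ti. Ti 1 overlapped the Ctrl libraries, and the log2 fold change was -0.23 (SE 0.12, edgeR adjusted p 0.823).

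Of the 8 kinetochore and centromere genes, 7 had lower fitted values in Ti, with a median of -0.14 on the log2 scale. Cenpa, the histone variant that marks centromeres, measured 82.5, 79.4 and 97.3 CPM in Ctrl and 78.9, 76.1 and 62.9 CPM in Ti. Its groups did not overlap, though Ti 1 and Ctrl 2 were nearly equal, and its log2 fold change was -0.25 (SE 0.14, edgeR adjusted p 0.823). Birc5, which encodes survivin, a passenger complex subunit, measured 103, 98.8 and 94.3 CPM in Ctrl and 93.7, 83.9 and 86.7 CPM in Ti. The groups touched between Ctrl 3 and Ti 1, and the log2 fold change was -0.16 (SE 0.09, edgeR adjusted p 0.833). Incenp, the scaffold of the same complex, was at 107 on the TPM scale and measured 244, 201 and 187 CPM in Ctrl and 223, 198 and 201 CPM in Ti. Its groups overlapped, with a log2 fold change of -0.02 (SE 0.13, edgeR adjusted p 0.994). Cenpe, a kinetochore motor, varied from 124 CPM in Ti 1 to 300 CPM in Ti 2.

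Of the 9 spindle motors and microtubule-binding proteins, 7 had lower fitted values in Ti, with a median of -0.12 on the log2 scale. The chromokinesin gene Kif4 had the lowest level of all members, 2.41 on the TPM scale, and measured 4.64, 16.0 and 2.16 CPM in Ctrl and 3.50, 1.29 and 4.62 CPM in Ti. Ctrl 2 alone was high, and the log2 fold change of -1.28 had an SE of 0.82 (edgeR adjusted p 0.862). Without Ctrl 2 it was -0.12. Prc1, which bundles microtubules of the central spindle, was at -0.39 (SE 0.24), with Ti 3 lowest at 40.5 CPM and Ctrl 2 highest at 84.5 CPM. Kif20a, a kinesin of the same structure, was at -0.28 (SE 0.16), and at -0.98 when its protein-coding forms alone were summed. Neither passed the test, with edgeR adjusted p-values of 0.848 and 0.833.

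Racgap1, Anln and Ect2 act in cytokinesis. Racgap1, a subunit of centralspindlin, measured 178, 166 and 164 CPM in Ctrl and 155, 149 and 123 CPM in Ti. All Ti libraries were below all Ctrl libraries, with Ti 3 lowest, and the log2 fold change was -0.25 (SE 0.12, interval -0.53 to 0.03, edgeR adjusted p 0.774). Anln, which encodes the actin-binding protein anillin of the contractile ring, measured 62.1, 291 and 326 CPM in Ctrl and 74.7, 151 and 73.8 CPM in Ti. Ctrl 1 was below every Ti library, so the groups overlapped despite a log2 fold change of -1.18 (SE 0.64, edgeR adjusted p 0.823). Ect2, the exchange factor that activates RhoA at the cleavage site, had a log2 fold change of 0.01 (SE 0.11, interval -0.26 to 0.27).

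The proliferation marker Mki67, which coats mitotic chromosomes, and Top2a, the enzyme that decatenates DNA, also had small estimates. Mki67 measured 158, 221 and 231 CPM in Ctrl and 215, 209 and 203 CPM in Ti, with the Ti libraries inside the Ctrl range and a log2 fold change of 0.04 (SE 0.16, interval -0.34 to 0.42). Top2a, at 134 on the TPM scale, measured 360, 394 and 395 CPM in Ctrl and 329, 410 and 346 CPM in Ti. Its groups overlapped, with a log2 fold change of -0.08 (SE 0.11, edgeR adjusted p 0.965).

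At the level of single transcripts the members have 253 annotated forms, of which 173 passed the filter. edgeR called 0 of them (0.00721% of all transcripts tested) and put 3 at an unadjusted p under 0.05 (4.29% of all). DESeq2 called 1 of them, Ect2-202 (0.985% of all). Ect2-202, a coding form of Ect2 with 24 exons, measured 1474, 939 and 1091 rescaled counts in Ctrl and 373, 279 and 224 in Ti, so all Ti libraries were far below all Ctrl libraries. Its log2 fold change was -1.86 (SE 0.27), with an adjusted p of 0.221 by edgeR and 1.3e-06 by DESeq2. Leaving out each library in turn gave -2.02 to -1.65, with edgeR adjusted p-values of 0.239 to 0.483. Its share of the Ect2 level averaged 18.5% in Ctrl and 4.88% in Ti, while the log2 fold change of the gene total was 0.01. It shares all 22 internal exons with the leading form Ect2-207, which ranged from 10.1% to 46.1% of the gene, so the 2 differ only at their ends, and how reads were divided between them was not tested. The other forms with the smallest p were Kif11-202, a retained-intron form (log2 fold change 0.92, SE 0.29), Ccna2-201 (-0.62, SE 0.22) and Ttk-204 (-1.02, SE 0.43), each with an edgeR adjusted p of 1.

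The drop of Foxm1 in Ti 1 and Ti 3 was in its main coding form. Foxm1-201 measured 15065, 8870 and 8313 rescaled counts in Ctrl and 2207, 6736 and 1803 in Ti, without overlap. The form led in every library but took from 30.8% to 79% of the Foxm1 level. Anln-201 likewise set the Anln total, at 3688, 11488 and 13365 rescaled counts in Ctrl and 3254, 5392 and 3327 in Ti. In 30 members the same form led in all 6 libraries, and in the other 10 the lead passed between forms. Kif20a-206, a form marked for nonsense-mediated decay, took from 13.7% to 89% of the Kif20a level. The leading form was not protein-coding in 5 members, Kif20a, Cenpa, Kif23, Kif4 and Prc1. Forms of other types took 60.8% to 75.7% of the Cenpa level and 79.1% to 92.8% of Kif23. They took 25.3% to 92.9% of Kif4 and 34.3% to 46.4% of Prc1. On protein-coding forms alone, log2 fold changes were -0.20 for Cenpa, -1.52 for Kif4 and -0.43 for Prc1, and Kif23 turned from higher to lower. Retained-intron forms made up 7.86% to 12.4% of the members' summed level per length in Ctrl and 9.35% to 12.6% in Ti, against 3.95% to 5.23% over all annotated transcripts. Exons of 13 members overlap another gene, in 10 of them on the opposite strand, and use of strand in the counting is not given in the sources used here. Among these are Kif20a with Cdc23, Prc1 with Rccd1, Ube2c with Tnnc2, Ccna2 with Exosc9 and Kif4 with Pdzd11. Foxm1 shares 144 exon bases with Tex52 and 97 with Gm44596, both on the same strand. The totals of these members are uncertain to that extent.

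**Figure D5:**
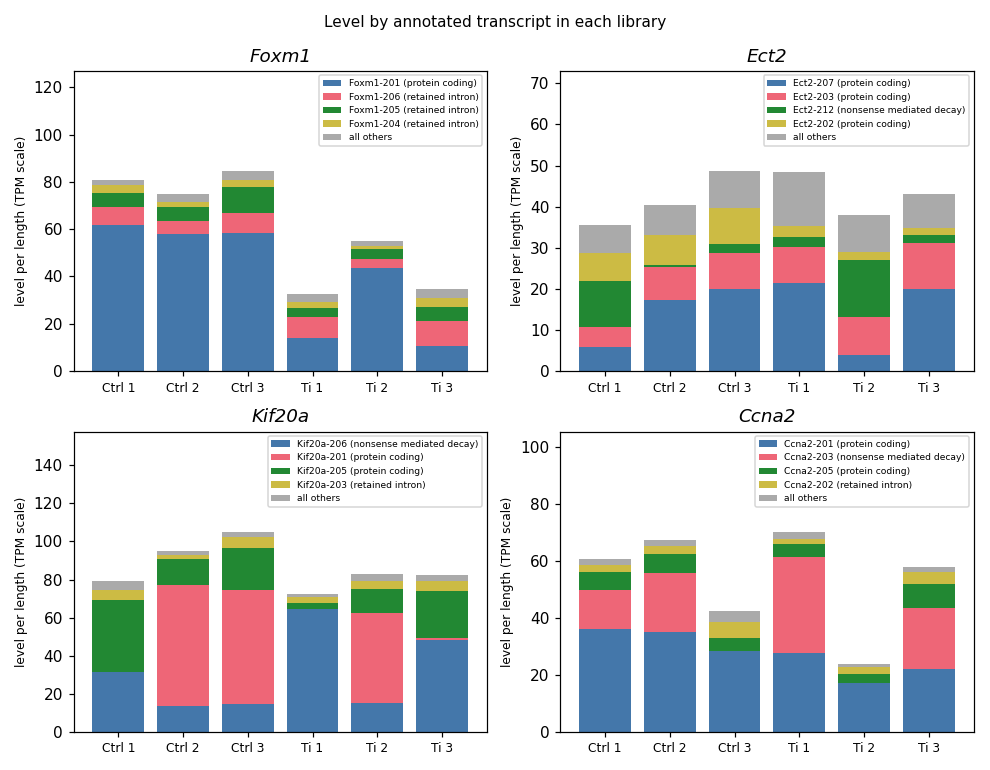
Level per length (TPM scale) of the annotated transcripts of Foxm1, Ect2, Kif20a and Ccna2 in each library, stacked, with the 4 leading forms of each gene coloured and the rest in grey. Foxm1-201 makes up most of the difference between Ti 1 or Ti 3 and the other libraries, and the Ect2-202 segment is thinner in all Ti libraries.

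Other genes of cell division, on lists also chosen with results of these data known, gave 0 calls by edgeR. Of 77 other mitosis genes tested, 50 had lower and 27 higher fitted values in Ti (median log2 fold change -0.09), 11 lay wholly below Ctrl and 5 wholly above (6.71% and 6.63% of all genes), and 11 had an unadjusted p under 0.05 (6.76% of all genes). Of the 15 APC/C subunits 9 were lower (median -0.03), and of 12 genes that control entry to mitosis 5 were lower (median 0.11). Of 25 DNA replication genes 12 were lower (median 0.00241), and of 28 tested genes of the pre-replicative phase and its inhibitors 17 were lower (median -0.05).

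The other mitosis genes with the smallest p went in both directions. Cenpu, a subunit of the inner kinetochore, measured 4.42, 5.36 and 4.84 CPM in Ctrl and 12.4, 14.7 and 11.2 CPM in Ti. All Ti libraries were above all Ctrl libraries, by a log2 fold change of 1.39 (SE 0.18, edgeR adjusted p 0.137). Troap, a microtubule-associated protein of the spindle, was at 0.94 in CPM (SE 0.18, edgeR adjusted p 0.270). Its level per length overlapped between the groups, at 23.9, 19.9 and 29.1 in Ctrl and 33.9, 22.5 and 26.1 in Ti. The log2 fold change of Pimreg was -0.43 (SE 0.09, edgeR adjusted p 0.354). In the other lists the smallest p-values belonged to the APC/C subunit gene Anapc5 (log2 fold change -0.32, SE 0.08), the stress-induced Gadd45b (0.79, SE 0.27), the replication licensing gene Cdc6 (-0.57, SE 0.20) and Lin9, which encodes a MuvB subunit (0.50, SE 0.13). Their edgeR adjusted p-values were 0.440, 0.642, 0.637 and 0.458.

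Cdc25a, Gadd45a, Cdc27, Fzr1, Rrm2, Mcm6, Cdkn2c and Lin54 followed on these lists, with edgeR adjusted p-values from 0.575 to 0.923.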

How the data were processed

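Total RNA of 3 Ctrl and 3 Ti libraries was analysed from estimated counts per transcript that the authors deposited. The submitters' processing notes name HISAT2, StringTie and the build mm9, and use of strand is not given in the sources used here. Deposited totals were 456595115 to 773215120, and values rose with genomic span. Each value was multiplied by exon length over span from GENCODE vM21 (GRCm38), summed per gene and rounded. Assembled transcripts with no gene (36.9% to 51.2% of the deposited totals) were left out. edgeR 4.0.16 tested Ti against Ctrl (filterByExpr, TMM, quasi-likelihood, Benjamini-Hochberg over all features tested), with DESeq2 1.42.0 as an alternative. A log2 fold change is Ti over Ctrl. A floor of 3 counts equals 0.0498 to 0.0796 CPM and covers counting error only.

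Members and lists were chosen with earlier results of these data known. Values in every library are given by rule for members past the threshold, the 8 with the smallest p, and the 4 highest and 2 lowest per length. Of other lists, the 3 genes with the smallest p are named, and of transcripts the 4. Further members are named as role examples, chosen after their values were seen. The 100-base promoter window was also set after values were seen.

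Labels do not say that replicate numbers mark a shared batch. Deviations from group means correlated at 0.117, 0.146 and 0.269 within numbers 1, 2 and 3, all over 0.1. Between numbers they correlated at -0.166 to 0.0319. Because deviations are taken from group means, higher values within numbers force lower ones between them, so the latter are not separate support. The numbers may pair the libraries, which was not tested. The main fit did not use this pairing. Printed estimates, intervals and p-values are unpaired except where a block by number is named. The pipeline was tested on simulated counts.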

Additional observations from a re-analysis of the deposited data

How the results depend on the processing

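The replicate block left 0 members called, with a median log2 fold change of -0.114 and 11 members higher, and moved the lowest adjusted p to 0.472 (Bub1b). It put 5 members (Ccnb2, Bub1b, Foxm1, Kif20a and Racgap1) at an unadjusted p under 0.05 by edgeR (9.37% of all genes). That fit called 0 of all 15376 genes, so its 0 calls of members are not particular to them. The median stayed negative in every setting, from -0.167 to -0.0423 when libraries were left out in turn. Members called ranged from 0 to 1 when libraries were left out, the 1 being Foxm1 (-2.05) without Ti 2, and members higher from 8 to 18. Without both libraries numbered 3, added after the data were seen, 17 were higher. DESeq2 called 1 member transcript where edgeR called 0. The summed ratio ranged from 0.837 to 0.936. Signs turned under at least 1 setting for 15 of the 40 members, none with a log2 fold change over 0.181 in size, and for 6 of the 24 whose fold changes are printed. Ect2 was at -0.00211 without a filter, -0.000898 on the values as deposited and -0.116 on coding transcripts only. Ccnb1 was at 0.00195 on the values as deposited, 0.0533 on coding transcripts only and 0.109 without both libraries numbered 3. With libraries left out in turn, the ranges of these 6 were -0.184 to 0.111 for Ube2c, -0.0979 to 0.0935 for Incenp, -0.113 to 0.145 for Mki67, -0.079 to 0.0827 for Ect2, -0.139 to 0.0458 for Aurka and -0.165 to 0.138 for Ccnb1. The cause was not tested. With 3 libraries a group, the printed intervals give the range of changes compatible with the main fit. No limit of detection was computed for the members.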

Other observations

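Troap, which is not among the 40 members, held a transcript that passed the test by edgeR narrowly. Troap-201, annotated as ENSMUST00000039665, measured 31, 28 and 32 rescaled counts in Ctrl and 1362, 1002 and 1037 in Ti. All Ti libraries were far above all Ctrl libraries, by a log2 fold change of 5.30 (SE 0.30), with an adjusted p of 0.0499 by edgeR and 1.88e-54 by DESeq2. The edgeR call was lost without the filter on low counts (adjusted p 0.0705), with libraries blocked by their number (0.926) and when any 1 library was left out (0.102 to 0.183), while the log2 fold change stayed between 5.13 and 5.42. The form Troap-204 went the other way, at 371, 165 and 302 rescaled counts in Ctrl and 77, 90 and 77 in Ti, with a log2 fold change of -1.61 (SE 0.33) and an adjusted p of 0.541 by edgeR and 0.00154 by DESeq2. How reads were divided between the forms was not tested. Troap was singled out after its values were seen.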
